A study of Mus musculus with 12 samples.

Results

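The nuclear genes for the subunits of oxidative phosphorylation were taken from the table by symbol: those beginning Ndufa, Ndufb, Ndufc, Ndufs, Ndufv, Uqcr, Cox4 to Cox8 or Atp5, and *Sdha* to *Sdhd*, leaving out pseudogene symbols. The rule found 92 of 23086 gene symbols, and it uses symbols alone. Of these genes 87 had at least 30 counts summed over all libraries, and 86 passed the filter on low counts and were tested among 12322 genes. By complex, 36 genes belong to complex I, 4 to complex II, 8 to complex III, 20 to complex IV and 15 to complex V. The rule also takes in 7 assembly factors of complex I, named Ndufaf, and *Atp5s* and *Atp5sl*, which are not subunits. *Ndufa4* and *Ndufa4l2* were counted with complex IV, where their proteins act despite their names. The 4 genes under 30 counts other than *Ndufs5* are tissue-restricted isoforms of complex IV. *Cox4i2*, with 55 counts, lay just inside the minimum but failed the filter, and *Cox7b2*, with 26, lay just outside.

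RNA was sequenced from mouse embryoid bodies, clumps of differentiating embryonic stem cells, after 2 days of differentiation. The stem cells were of the A2lox.cre type, where doxycycline, an antibiotic, turns on an inserted gene. One line carried mutant FLAG-*Lhx1*, with no description of the mutation in the labels, and the other carried wild-type FLAG-*Lhx1*, a LIM homeodomain transcription factor of head development fused to a short peptide tag. The 4 groups were the mutant line with doxycycline for 16 h, the mutant line without it, the wild-type line with doxycycline for 16 h and the wild-type line without it, with 3 libraries each. Nothing in the labels says that the 3 libraries came from separate cultures, so p-values measure the spread between these libraries, which may be technical. Each allele was carried by 1 line, so a difference between the lines cannot be told apart from any other difference between 2 stem cell lines. These are bulk samples, in which fewer cells of a type and less RNA per cell cannot be told apart.

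Oxidative phosphorylation makes most of the ATP of respiring cells. Complexes I and II pass electrons from NADH and succinate to ubiquinone, complex III passes them to cytochrome c, and complex IV passes them to oxygen. Complexes I, III and IV pump protons out of the mitochondrial matrix, and complex V, the ATP synthase, uses their return to make ATP. Most subunits are encoded in the nucleus and join a small core made from mitochondrial DNA. The transcription factors NRF1, GABP (an ETS factor) and YY1 are known for binding many of the nuclear promoters. Pluripotent stem cells express these genes while relying strongly on glycolysis.

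Libraries held 4289984 to 4850393 counts. *Lhx1* had 1140, 1218 and 1141 counts in the mutant line with doxycycline and 2 in each mutant library without it, and 1343, 1218 and 1346 in the wild-type line with doxycycline against 14, 8 and 5 without it, as the labels state. All 10 pluripotency and epiblast markers were detected, with summed levels of 5226 to 6205 CPM (counts per TMM-scaled library size). Other cell types' summed levels were far lower. The germ cell list, with *Prm2* at 0, stood at 111 to 126 CPM in mutant libraries against 57.5 to 70.9 CPM in wild-type libraries, a gap carried by *Sycp3*, at 80.8 CPM in untreated mutant and 24.6 CPM in untreated wild-type libraries, while *Ldhc* was lower, at 1.32 and 5.96 CPM. The endoderm list stood at 23.3 to 33.7 CPM in mutant libraries against 12.8 to 20.6 CPM in wild-type libraries. Of its 3 tested genes 1, *Gata4*, was higher in the untreated mutant line, and 2 were higher with doxycycline. *Dab2*, the largest part of the sum, had 15.5 CPM in untreated mutant and 12.6 CPM in untreated wild-type libraries, which did not pass the test. The muscle list, in which 1 gene was higher and 2 lower in the untreated mutant line, held 27.4 to 44.8 CPM, the fibroblast list 18.3 to 36.8 CPM and the trophoblast list, with *Tpbpa* at 0, 7.91 to 12.7 CPM. Library 3 of the untreated wild-type group stood apart by *Bnip3*, a low-oxygen gene, at 229 CPM against 52.1 to 148 CPM elsewhere. It also held 35 of all 50 counts of *Ckm* and 30 of 43 of *Mb*, both muscle genes, and 26 of 103 of *Dcn* and 9 of 21 of *Col3a1*, both fibroblast genes. Library 2 of the wild-type doxycycline group stood apart by *Rn45s*, the ribosomal RNA precursor, at 1.45% of counts against 0.0884% to 0.265% elsewhere.

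Together the subunit genes took 1.01% to 1.17% of the counts in a library. Per kb of transcript, the scale on which genes can be compared, the median level was higher from each complex to the next, at 60.6 CPM per kb for complex I, 78.6 for complex II, 140 for complex III, 201 for complex IV and 215 for complex V. The complex I assembly factors, which help build the complex without staying in it, had a median level of 12.2 CPM per kb. The highest level of any member was that of *Atp5b*, the catalytic beta subunit of the ATP synthase, at 1057 CPM per kb. *Atp5g3*, 1 of 3 genes for the membrane ring subunit c, followed at 498 CPM per kb. In complex IV the highest levels were those of *Cox4i1* and *Cox7c*, at 384 and 382 CPM per kb, and in complex III those of *Uqcrh* and *Uqcrb*, at 257 and 161 CPM per kb. Complex I was led by *Ndufa7* and *Ndufb8*, both accessory subunits, at 176 and 132 CPM per kb. Complex II was led by *Sdhd*, a membrane anchor, and *Sdha*, the succinate-oxidising flavoprotein, at 104.6 and 83.0 CPM per kb. With all annotated exons of a gene as its length, the medians were 33.5, 48.1, 90.3, 94.6 and 90.0 CPM per kb for complexes I to V, so the order of complexes III, IV and V rests on the choice of transcript.

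**Figure D1:**
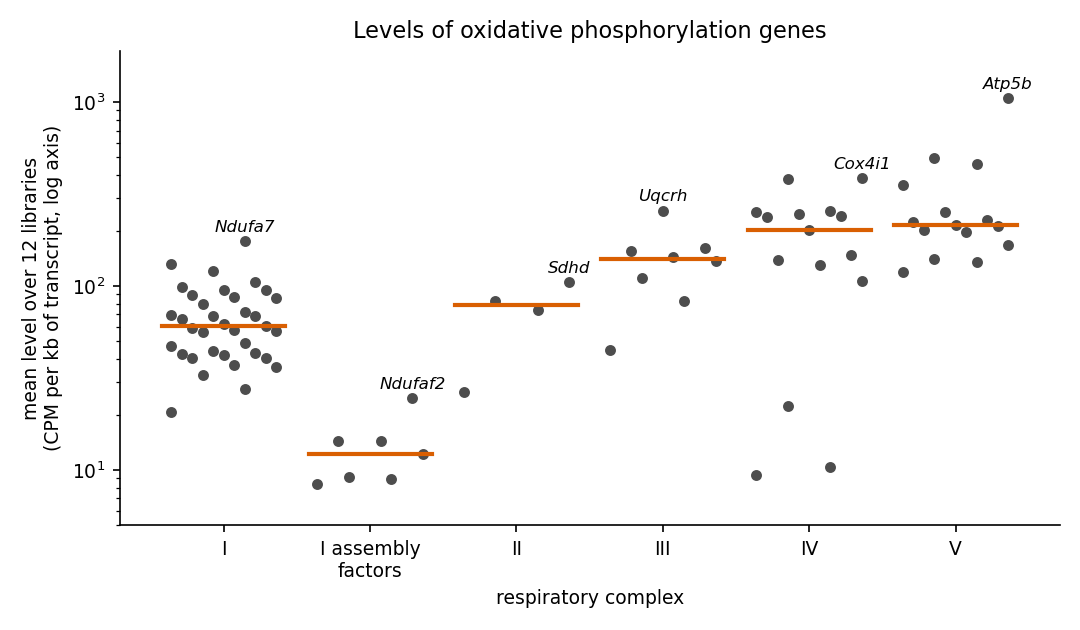
Mean level of each tested subunit and complex I assembly factor over the 12 libraries, in CPM per kb of transcript on a log axis, by respiratory complex. Each point is 1 gene, the bar is the median of the group, and the gene named in each group has its highest level. Levels run from 8.38 CPM per kb, for an assembly factor of complex I, to 1057 CPM per kb for *Atp5b*.

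Isoform pairs of complex IV were split by level. *Cox4i1*, the general isoform of subunit 4, had 384 CPM per kb, against 1.36 CPM per kb for *Cox4i2*, the isoform known from lung and low oxygen. *Cox6b1* had 201 CPM per kb against 22.2 CPM per kb for *Cox6b2*, known from testis. *Cox7a2* had 107 CPM per kb and *Cox7a2l*, a factor of respiratory supercomplexes, 130 CPM per kb, against 9.43 CPM per kb for *Cox7a1*, the heart and muscle isoform. *Cox6a1*, *Cox7b* and *Cox8a* had 239, 138 and 248 CPM per kb. Their counterparts *Cox6a2*, *Cox7b2*, *Cox8b* and *Cox8c* held only 4, 26, 1 and 12 counts over all libraries. *Ndufs5*, an accessory subunit of complex I, held 2 counts in all, while *BC002163*, which shares 41.2% of its 50-base stretches, held 90 to 131 counts in every library. Reads of this pair cannot be assigned with certainty, and the same holds for other members that share many 50-base stretches with other annotated genes, such as *Atp5g2* (87.4%), *Atp5l* (68.5%), *Atp5g1* (66%), *Cox7c* (53%), *Atp5h* (50.5%) and *Uqcrb* (43.2%).

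Promoters of 73 members were matched in RefSeq (GRCm38.p6), each a window of 250 bases before and 50 after the start, and 5 motifs were searched on both strands. GCGC, any base and then TGCGC, the NRF1 motif, was found in 17 members (23.3%) and in 4.78% of all promoters in the table. CCGGAAG, the ETS motif, was found in 16 members (21.9%) and in 9.12% of all, and AAGATGGCG, the YY1 motif, in 7 members (9.59%) and in 1.49% of all. ACGTG, the core of hypoxia response elements, was found in 19 members (26%) and in 19.7% of all. TAATTA, a motif of homeodomain proteins such as LHX1, was found in 0 members and in 5.31% of all. In the 250 bases before the start alone, which were searched first, the NRF1, ETS and YY1 motifs were found in 12, 12 and 0 members, and in 3.86%, 7.05% and 0.607% of all. A match is a description of the letters, not a binding site. The 250 bases before the start are shown for members whose values follow below. *Atp5h*, *Ndufb7* and *Uqcrh* are the 3 of the 12 named lower members found to hold an NRF1 or ETS motif in these bases, and they are shown for that reason. In the full window *Uqcrc1*, also among the 12, held 2 NRF1 matches, and it is not shown. *Cox4i1*, *Uqcrq* and *Cox6c*, also among the 12, had no match in the promoter table and were not searched, so 9 were. *Atp5g1* and *Ndufv3* are shown as the lower and the higher member with a promoter entry and the smallest adjusted p between the untreated lines, and *Ndufa11* as the member with the smallest adjusted p for the difference of responses. Capitals mark the NRF1 and ETS motifs, on either strand.
*Atp5h*, chr11:115419920-115420169, minus strand, with an NRF1 and an ETS motif: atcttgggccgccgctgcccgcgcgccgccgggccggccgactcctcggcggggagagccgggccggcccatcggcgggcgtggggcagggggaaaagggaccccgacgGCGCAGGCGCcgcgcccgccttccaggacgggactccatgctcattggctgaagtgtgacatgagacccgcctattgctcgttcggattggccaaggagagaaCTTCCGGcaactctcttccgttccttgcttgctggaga
*Ndufa11*, chr17:56717512-56717761, plus strand, with an NRF1 motif: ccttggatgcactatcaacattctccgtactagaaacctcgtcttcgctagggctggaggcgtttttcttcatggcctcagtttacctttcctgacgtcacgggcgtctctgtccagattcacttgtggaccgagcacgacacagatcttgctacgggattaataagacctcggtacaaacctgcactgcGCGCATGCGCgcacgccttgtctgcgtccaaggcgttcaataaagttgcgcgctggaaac
*Ndufb7*, chr8:83566508-83566757, plus strand, with an ETS motif: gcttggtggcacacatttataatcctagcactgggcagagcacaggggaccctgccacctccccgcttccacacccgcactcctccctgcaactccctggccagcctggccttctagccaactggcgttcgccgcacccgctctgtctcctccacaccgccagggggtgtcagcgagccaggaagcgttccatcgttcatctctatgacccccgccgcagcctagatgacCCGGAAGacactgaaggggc
*Uqcrh*, chr4:116075071-116075320, minus strand, with an ETS motif: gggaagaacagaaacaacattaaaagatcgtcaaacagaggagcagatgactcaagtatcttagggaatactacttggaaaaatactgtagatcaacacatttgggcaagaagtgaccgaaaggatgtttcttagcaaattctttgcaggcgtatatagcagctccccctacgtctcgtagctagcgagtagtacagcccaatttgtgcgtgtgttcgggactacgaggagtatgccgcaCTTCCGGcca
*Atp5g1*, chr11:96075632-96075881, minus strand, with neither motif: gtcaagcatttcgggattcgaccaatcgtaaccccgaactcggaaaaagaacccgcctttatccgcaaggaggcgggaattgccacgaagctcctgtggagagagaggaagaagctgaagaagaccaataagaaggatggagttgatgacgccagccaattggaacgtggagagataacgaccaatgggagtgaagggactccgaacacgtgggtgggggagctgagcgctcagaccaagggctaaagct
*Ndufv3*, chr17:31519865-31520114, plus strand, with neither motif: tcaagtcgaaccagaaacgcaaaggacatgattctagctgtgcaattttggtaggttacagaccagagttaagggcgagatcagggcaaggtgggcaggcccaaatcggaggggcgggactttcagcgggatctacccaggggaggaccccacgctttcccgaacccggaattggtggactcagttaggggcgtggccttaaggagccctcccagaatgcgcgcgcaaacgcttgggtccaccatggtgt

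Between the lines, oxidative phosphorylation genes were more often lower than higher in the mutant. Without doxycycline, 43 of the 86 tested members were lower in the mutant line and 3 were higher (quasi-likelihood test of edgeR, with an adjusted p under 0.05 by Benjamini and Hochberg), while 40 were not called. Of all genes tested 22.6% were lower and 23% higher, 45.5% in all, and 51.8% had lines whose libraries did not overlap. The median log2 fold change was -0.16 over the members, against 0.0035 over all genes. The summed level of the subunit genes was 10231 ± 300 CPM in mutant libraries and 11745 ± 184 CPM in wild-type libraries (SD, n = 3 each), a ratio of 0.871. By complex the ratio was 0.901 for I, 0.940 for II, 0.843 for III, 0.814 for IV and 0.878 for V. With doxycycline, 22 members (25.6%) were lower and 7 (8.14%) were higher in the mutant line, beside 22.4% and 21.9% of all genes (44.4% in all, with 51.7% not overlapping). The median was -0.03 over the members, against 0.0090 over all genes. It was -0.08 without wild-type doxycycline library 2, -0.0036 without library 1 and -0.0178 without library 3 of that group, and -0.0519 and -0.0450 without mutant doxycycline libraries 2 and 3. With the trend on transcript length described below removed, it was -0.0020 against 0.00059 over all genes, with 20 members lower and 10 higher. Of the 43 members lower without doxycycline 19 were also lower with it (44.2% of the 43 and 86.4% of the 22), and 1, *Cox8a*, was called higher with it, a call lost in 6 alternatives, DESeq2 among them. Its untreated call was lost with the length trend removed (adjusted p = 0.641) and without both libraries that stand apart (adjusted p = 0.0932).

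**Figure D2:**
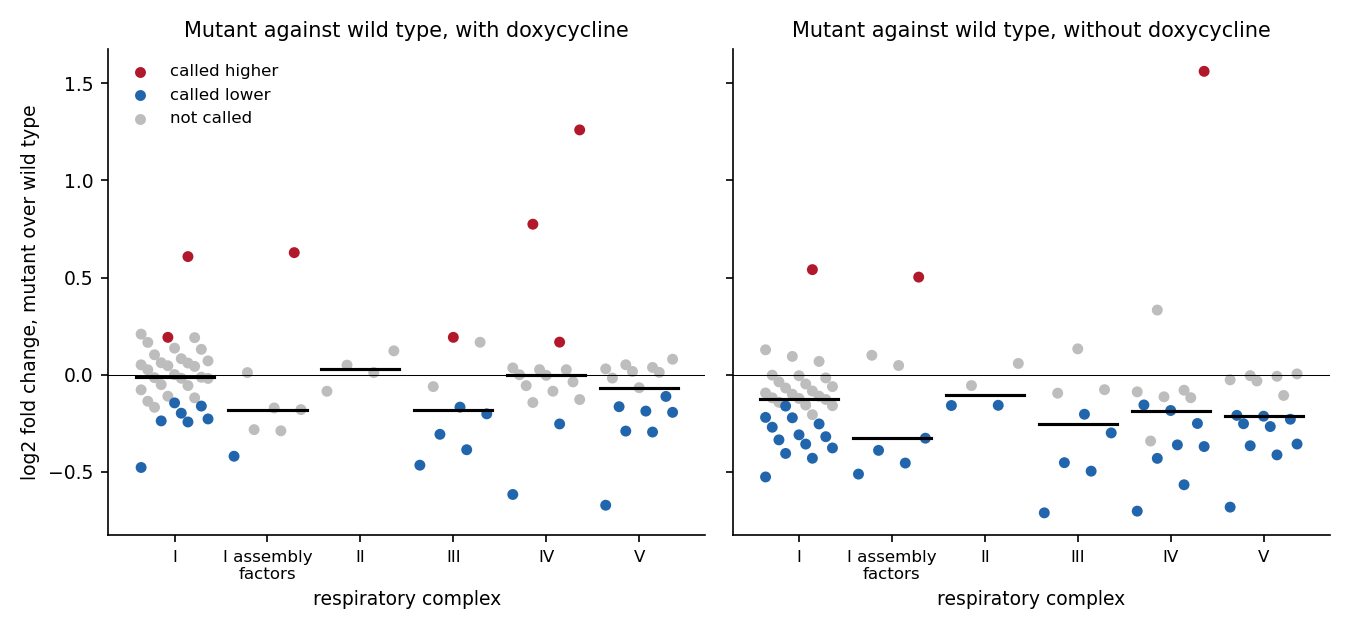
Log2 fold change, mutant over wild-type line, of each tested subunit and complex I assembly factor, by complex, with doxycycline on the left and without it on the right. Each point is 1 gene, blue where called lower, red where called higher and grey where not called, and the bar is the median. Most points lie below 0 without doxycycline, while the complex IV median lies at -0.18 without it and at -0.0031 with it.

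Members encode short transcripts, and transcript length moved with the same comparison. In the untreated lines, the median log2 fold change of all 751 tested genes with transcripts up to 1 kb was -0.14 and 35.8% of them were lower in the mutant, while that of genes over 4 kb was 0.06. The 51 members in the short class had a median of -0.21, the 27 members from 1 to 2 kb had -0.12 against -0.08 for all such genes, and the 8 members from 2 to 4 kb had -0.07 against 0.02. With a trend on transcript length removed from each library, 29 members were lower and 8 higher in the untreated mutant line, against 24% and 21.9% of all genes, and the members' median was -0.07 against -0.01. The part of transcript length in the members' difference was not tested beyond this. The summed endoderm markers and *Sycp3* moved with the lines, and their part was not tested.

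**Figure D3:**
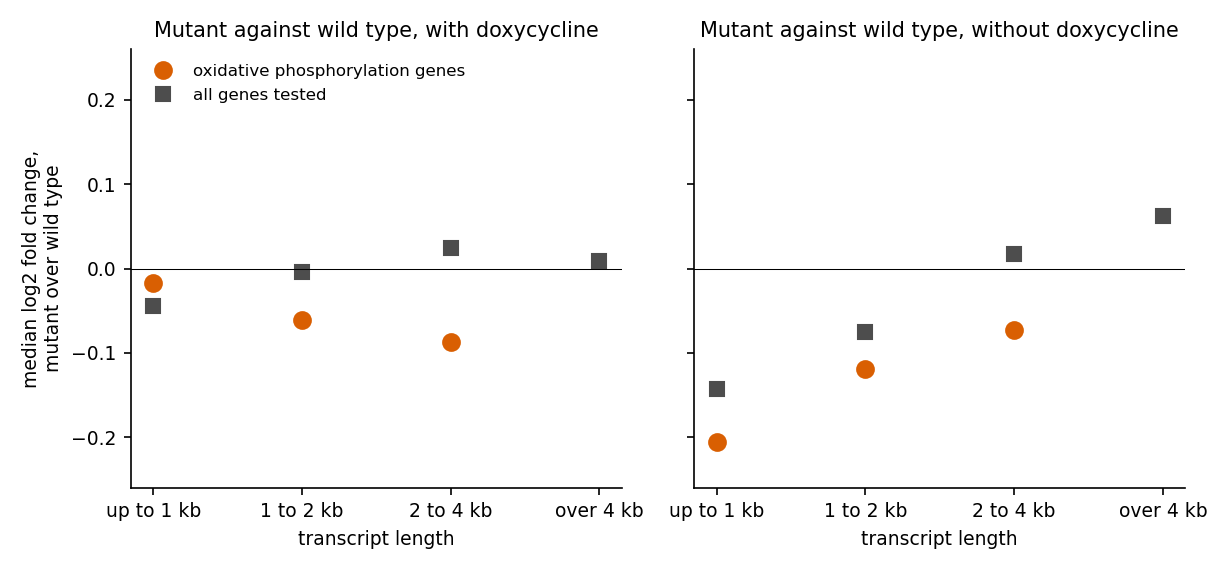
Median log2 fold change, mutant over wild-type line, by transcript length, with doxycycline on the left and without it on the right. Circles are oxidative phosphorylation genes and squares all genes tested. Without doxycycline both medians are lowest for transcripts up to 1 kb, at -0.21 for the members and -0.14 for all genes.

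In complex I, 13 of 35 tested genes were lower and 1 was higher in the untreated mutant line. The shares over all genes tested were 22.6% and 23%. The lower genes included 3 of the 7 core subunits that carry electrons. *Ndufb7*, an accessory subunit of the membrane arm (promoter shown), had 48.1, 47.2 and 49.8 CPM in untreated mutant libraries, against 66.4, 66.7 and 75.8 CPM in untreated wild-type libraries. With doxycycline it had 48.9, 49.3 and 49.4 CPM in mutant libraries, against 72.9, 64.4 and 68.3 CPM in wild-type libraries. All 6 mutant libraries lay below all 6 wild-type libraries, with log2 fold changes of -0.53 (SE 0.0781, adjusted p = 1.25e-07) without and -0.48 (SE 0.0782, adjusted p = 1.03e-06) with doxycycline. *Ndufv1*, the core subunit that takes electrons from NADH, was lower by log2 fold changes of -0.27 without and -0.24 with doxycycline. *Ndufs6* and *Ndufc2*, accessory subunits, had -0.43 and -0.41 in the untreated lines, and -0.14 and -0.12 with doxycycline, where neither was called. With the length trend removed, their untreated values were -0.28 and -0.27, both called.

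*Ndufv3*, an accessory subunit of the NADH-binding module, went the other way. It had 54.1, 53.1 and 52.8 CPM in untreated mutant libraries, against 32.6, 35.0 and 42.1 CPM in untreated wild-type libraries. With doxycycline it had 56.3, 54.3 and 43.3 CPM in mutant libraries, against 36.1, 27.6 and 36.7 CPM in wild-type libraries. Every mutant library was above every wild-type library, by 1.46-fold (log2 0.54, SE 0.103, adjusted p = 3.03e-05) without and 1.52-fold (log2 0.61, SE 0.105, adjusted p = 6.97e-06) with doxycycline. *Ndufs4*, an accessory subunit whose loss impairs complex I in mice, was called higher with doxycycline (log2 0.19, adjusted p = 0.0332). This call was lost in DESeq2, without mutant doxycycline library 3, without wild-type doxycycline library 2 and without both libraries that stand apart.

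Of the 7 complex I assembly factors, 4 were lower in the untreated mutant line and 1 was higher, beside 22.6% and 23% of all genes. *Ndufaf1*, an early assembly factor, was lower without doxycycline (log2 -0.51, SE 0.140, adjusted p = 0.00223) and with it (log2 -0.42, SE 0.137, adjusted p = 0.0106). *Ndufaf3*, *Ndufaf2* and *Ndufaf7* had log2 fold changes of -0.45, -0.39 and -0.33 without doxycycline. The call of *Ndufaf2* was lost with the length trend removed (log2 -0.25, adjusted p = 0.145), and that of *Ndufaf7* without both libraries that stand apart (adjusted p = 0.0961). *Ndufaf6* had 14.6, 14.2 and 17.3 CPM in untreated mutant libraries, against 8.09, 13.6 and 10.8 CPM in untreated wild-type libraries. It was higher in the mutant by log2 0.50 (SE 0.166, adjusted p = 0.0108) without doxycycline and by 0.63 (SE 0.165, adjusted p = 0.00141) with it. The untreated call was lost in DESeq2, without mutant library 3 and without wild-type library 1, with adjusted p from 0.00135 to 0.120 over all alternatives.

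Complex II, which also works in the citric acid cycle, differed least in its summed level. *Sdha* was lower in the untreated mutant line by a log2 fold change of -0.16 (SE 0.0475, adjusted p = 0.00533), and *Sdhb*, the iron-sulfur subunit, by -0.16 (SE 0.0669, adjusted p = 0.0476). The call of *Sdhb* was lost with the length trend removed (log2 -0.07, adjusted p = 0.416). The membrane anchors *Sdhc* and *Sdhd* had -0.06 and 0.06 and were not called. With doxycycline 0 of the 4 were called, where 44.4% of all genes were, and 1 had an unadjusted p under 0.05.

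Complex III held 5 of 8 genes lower in the mutant line both without and with doxycycline, beside 22.6% and 22.4% of all genes. *Uqcrq*, a small subunit also called ubiquinone-binding protein QP-C, had 55.0, 52.5 and 52.2 CPM in untreated mutant libraries, against 88.0, 87.7 and 85.6 CPM in untreated wild-type libraries. With doxycycline it had 57.4, 60.7 and 49.4 CPM in mutant libraries, against 85.9, 70.3 and 74.8 CPM in wild-type libraries. The groups did not overlap, and the level in the mutant was 0.611 times that in the wild type (log2 -0.71, SE 0.0776, adjusted p = 3.19e-11) without and 0.724 times (log2 -0.47, SE 0.0786, adjusted p = 1.88e-06) with doxycycline. *Uqcrh*, the hinge protein that helps cytochrome c bind (promoter shown), had 110, 123 and 129 CPM in untreated mutant libraries, against 155, 170 and 169 CPM in untreated wild-type libraries, a log2 fold change of -0.45 (SE 0.0607, adjusted p = 1.09e-08). With doxycycline its log2 fold change was -0.20 (SE 0.0609, adjusted p = 0.00564). The change between these differences, 0.25, did not pass the test (adjusted p = 0.121).
*Uqcr10*, a small subunit, had log2 fold changes of -0.50 without and -0.39 with doxycycline. *Uqcrc1*, a large core subunit on the matrix side, had -0.30 and -0.17, and *Uqcrb*, a ubiquinone-binding subunit that shares 43.2% of its 50-base stretches with other genes, had -0.20 and -0.31. All of these were called, but with the length trend removed the untreated value of *Uqcrb* was -0.05 and its call was lost (adjusted p = 0.551). *Uqcrfs1*, the Rieske iron-sulfur protein, was higher with doxycycline (log2 0.19, adjusted p = 0.0124), though the groups overlapped. Its call was lost in DESeq2, without wild-type doxycycline library 2 or 3 and without both libraries that stand apart.

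In complex IV, 8 of 15 tested genes were lower and 1 was higher in the untreated mutant line, and 2 were lower and 3 higher with doxycycline. The shares of all genes lower and higher were 22.6% and 23% without doxycycline, and 22.4% and 21.9% with it. *Cox4i1*, a nuclear subunit needed for assembly of the enzyme, had 215, 220 and 232 CPM in untreated mutant libraries, against 346, 368 and 371 CPM in untreated wild-type libraries. With doxycycline it had 224, 218 and 224 CPM in mutant libraries, against 354, 306 and 361 CPM in wild-type libraries. All mutant libraries lay within 215 to 232 CPM, below every wild-type library, and the mutant level was 0.615 times (log2 -0.70, SE 0.0507, adjusted p = 3.52e-17) and 0.652 times (log2 -0.62, SE 0.0509, adjusted p = 4.57e-15) the wild-type level without and with doxycycline. With the length trend removed these log2 fold changes were both -0.57, and *Cox4i1* shares 0 of its 50-base stretches with other genes. *Cox7a2*, the general isoform of subunit 7a, had 55.6, 56.0 and 60.3 CPM in untreated mutant libraries, against 88.2, 84.6 and 81.8 CPM in untreated wild-type libraries (log2 -0.57, SE 0.0744, adjusted p = 6.14e-09). *Cox7c* and *Cox6c*, small subunits, had log2 fold changes of -0.43 and -0.37 without doxycycline, and -0.28 and -0.22 with the length trend removed, all called. With it *Cox7c* had -0.25 and was called, and *Cox6c* had -0.13 and was not (adjusted p = 0.0857). *Cox6b2* was 1.71-fold higher in the mutant with doxycycline (log2 0.77, SE 0.184, adjusted p = 0.000458), with 13.6, 14.95 and 12.8 CPM in mutant libraries against 7.999, 5.70 and 10.2 CPM in wild-type libraries.

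**Figure D4:**
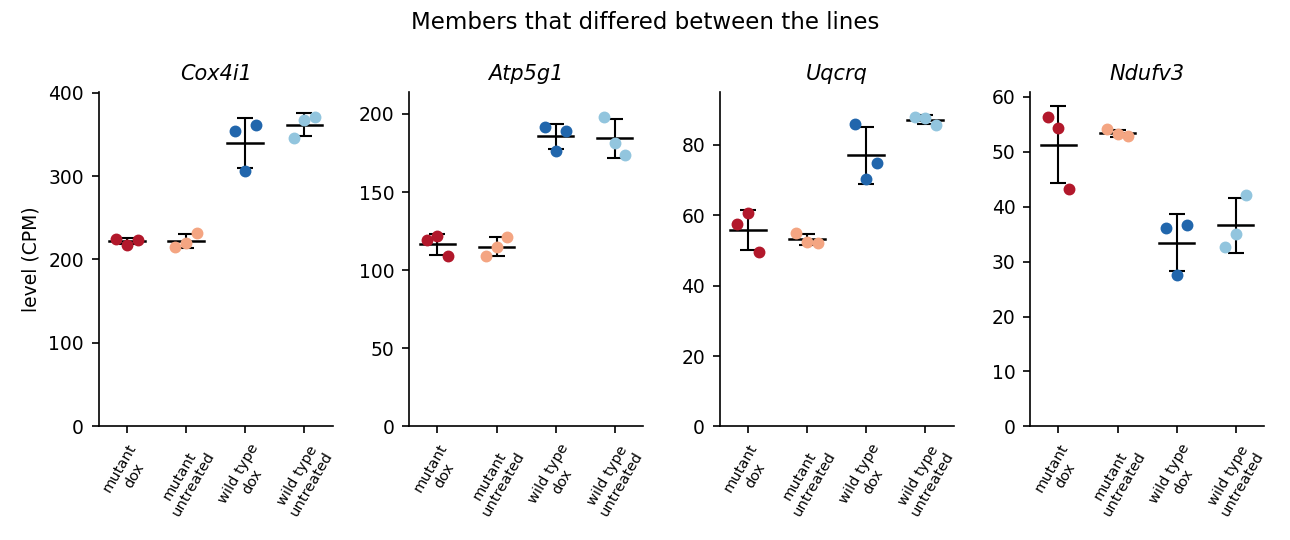
Levels in CPM of *Cox4i1*, *Atp5g1*, *Uqcrq* and *Ndufv3* in each library of the 4 groups. Points are libraries, and the bars give the mean ± SD of 3 libraries. The mutant libraries lie below the wild-type libraries for the first 3 genes and above them for *Ndufv3*, with and without doxycycline.

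*Ndufa4l2*, a relative of *Ndufa4* known for its induction by low oxygen, had the largest difference of any member. It held 73, 62 and 68 counts in untreated mutant libraries, against 13, 7 and 43 counts in untreated wild-type libraries. With doxycycline it held 69, 51 and 75 counts in mutant libraries, against 19, 18 and 39 counts in wild-type libraries. Each wild-type group had 1 high library that still lay below all mutant libraries. The mutant level was 2.95-fold higher (log2 1.56, SE 0.466, adjusted p = 0.0233) without and 2.40-fold higher (log2 1.26, SE 0.450, adjusted p = 0.0494) with doxycycline. The untreated wild-type library with 43 counts was the one with *Bnip3* at 229 CPM. The wild-type doxycycline library with 39 counts had *Bnip3* at 107 CPM, against 52.1 and 65.8 CPM in its group. Mutant libraries, all with more *Ndufa4l2* counts than any wild-type library, had *Bnip3* at 83.4 to 148 CPM. In the mutant line with doxycycline, the library with 75 counts had the lowest *Bnip3*, at 83.4 CPM against 133 and 134 CPM. Whether *Ndufa4l2* followed *Bnip3* was not tested. Leaving out both libraries that stand apart gave log2 2.60 without doxycycline and 1.09 with it. The untreated call was lost in 4 alternatives, all of which left out libraries, with adjusted p up to 0.0772. The call with doxycycline was lost in 11 alternatives, DESeq2 among them, with adjusted p from 6.01e-07 to 0.141 over all alternatives. *Ndufa4*, the paralogue bound to complex IV, was lower in the untreated mutant line (log2 -0.25, SE 0.0590, adjusted p = 0.00039), but not called with the length trend removed (log2 -0.11, adjusted p = 0.0957).

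In complex V, 9 of 15 genes were lower in the untreated mutant line and 7 of 15 with doxycycline, and 0 were higher in either. Over all genes tested, 22.6% were lower and 23% higher without doxycycline, and 22.4% and 21.9% with it. The membrane part and peripheral stalk held 7 lower of 10 genes without doxycycline, and the catalytic head with the central stalk 2 of 5. Transcripts ran from 371 to 1604 bases in the former and from 421 to 2471 bases in the latter, and this contrast was not tested. *Atp5g1* had 109, 115 and 121 CPM in untreated mutant libraries, against 198, 181 and 174 CPM in untreated wild-type libraries. With doxycycline it had 119, 122 and 109 CPM in mutant libraries, against 191, 176 and 189 CPM in wild-type libraries. The ranges did not overlap, with log2 fold changes of -0.68 (SE 0.0591, adjusted p = 1.77e-14) without and -0.67 (SE 0.0590, adjusted p = 2.47e-14) with doxycycline. The 3 genes for subunit c, whose mature proteins are the same, had different results. *Atp5g3* had log2 fold changes of -0.27 without (-0.13 with the length trend removed) and -0.16 with doxycycline, all called, and *Atp5g2* had -0.03 and 0.03, neither called. Shared sequence makes the values of *Atp5g1* and *Atp5g2* uncertain, while *Atp5g3* shares 0 of its 50-base stretches.
*Atp5h*, the peripheral stalk subunit d (promoter shown), had 111, 124 and 121 CPM in untreated mutant libraries, against 163, 162 and 149 CPM in untreated wild-type libraries (log2 -0.41, SE 0.0613, adjusted p = 1.26e-07). With doxycycline its log2 fold change was -0.29 (SE 0.0620, adjusted p = 8.6e-05). *Atp5o*, the protein that ties the stalk to the head, had -0.23 and -0.19 without and with doxycycline, both called. With the length trend removed, the untreated value of *Atp5h* was -0.27 and called, and that of *Atp5o* was -0.10 and not called (adjusted p = 0.0793). *Atp5b* averaged 1845 ± 45.8 CPM in untreated mutant libraries and 2198 ± 57.4 CPM in untreated wild-type libraries (SD, n = 3 each), a log2 fold change of -0.25 (SE 0.0401, adjusted p = 5.7e-07). *Atp5a1*, the alpha subunit of the same head, had -0.03 and was not called. *Atp5s* and *Atp5sl*, the 2 genes that are not subunits, were both lower in the untreated mutant line, with log2 fold changes of -0.98 and -0.31. The call of *Atp5s* was lost without both libraries that stand apart (adjusted p = 0.0820).

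Few members, and few of all genes, were called between libraries with and without doxycycline of the same line. Both lines carried an inserted FLAG-*Lhx1*, so effects of doxycycline itself and of the induced gene cannot be told apart. In the mutant line 0 of 86 members were called, where 0.0162% of all genes were called, all higher, and 10.6% did not overlap. 9 members had an unadjusted p under 0.05, and DESeq2 and limma-voom called 0. Their median log2 fold change was 0.06, and 66 of 86 lay above 0. The median was 0.03 with the length trend removed and 0.09 without mutant untreated library 3. The subunit sum was 10592 ± 127 CPM with doxycycline and 10231 ± 300 CPM without it (SD, n = 3 each). In the wild-type line 0 members were higher and 2 were lower with doxycycline, where 2.76% of all genes were higher, 2.56% lower and 5.32% called, and 18.9% did not overlap. The median was -0.05, 64 of 86 lay below 0 and 18 had an unadjusted p under 0.05. This median rests on single libraries: it was -0.0177 without wild-type doxycycline library 2, -0.0923 without library 1 of that group, -0.0849 without wild-type untreated library 1, -0.0081 without both libraries that stand apart and -0.0276 with the length trend removed. The subunit sum was 11337 ± 543 CPM with doxycycline and 11745 ± 184 CPM without it. Transcripts up to 1 kb of all genes moved the same way, with medians of 0.05 in the mutant line and -0.04 in the wild-type line. Members of that length had 0.07 and -0.10. Wild-type doxycycline library 2, with the high *Rn45s* share, was the lowest of its group for the members, and all short transcripts had a median deviation of -0.0717 there from the group's mean on the log2 scale.

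The 2 members lower with doxycycline in the wild-type line were *Cox8a* and *Ndufa11*. *Cox8a*, the general isoform of subunit 8 of complex IV, had 137, 118 and 116 CPM with doxycycline, against 143, 144 and 163 CPM without it (log2 -0.28, SE 0.0632, adjusted p = 0.0016). *Ndufa11*, an accessory subunit of the complex I membrane arm (promoter shown), had 50.1, 38.7 and 47.6 CPM with doxycycline, against 56.8, 54.7 and 56.9 CPM without it (log2 -0.30, SE 0.0887, adjusted p = 0.0282). Neither pair of groups overlapped. Without both libraries that stand apart the adjusted p was 0.114 for *Cox8a* and 0.368 for *Ndufa11* (lowest 0.000116 and 0.0125 over all alternatives). In the same fit 1 other member, *Ndufa4l2*, was called higher (log2 1.46, adjusted p = 0.00783). That fit left out the untreated library with the highest *Bnip3*. It kept doxycycline library 3, which had the most *Ndufa4l2* counts of the wild-type libraries kept. *Bnip3* stood at 107 CPM there, against 52.1, 58.5 and 63.3 CPM in the other wild-type libraries kept. Whether *Ndufa4l2* followed *Bnip3* was not tested. The *Ndufa11* call was also lost in DESeq2, with the length trend removed (adjusted p = 0.0518) and without wild-type doxycycline library 2 or any 1 of the 3 wild-type untreated libraries. Leaving out single libraries gave 1 to 6 calls, with 1 without wild-type doxycycline library 2 or untreated library 2, and 6 without wild-type doxycycline library 1.

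The response to doxycycline differed between the lines for 5 members, all with a positive difference, mutant response minus wild-type response, where 1.09% of all genes had a called positive difference, 1.4% a negative one and 2.49% either. The same test asks whether the gap between the lines changed with doxycycline. *Ndufa11* had 47.4, 55.1 and 47.8 CPM with doxycycline in the mutant line, against 42.9, 41.3 and 45.6 CPM without it. Its difference of responses was 0.51 (SE 0.126, adjusted p = 0.00964). *Cox7a2* had 61.6, 73.5 and 63.7 CPM with doxycycline in the mutant line, against 55.6, 56.0 and 60.3 CPM without it. In the wild-type line it had 73.6, 69.6 and 76.1 CPM with doxycycline, against 88.2, 84.6 and 81.8 CPM without it. Treated libraries were thus all above untreated ones in the mutant line and all below them in the wild-type line, and the difference was 0.42 (SE 0.105, adjusted p = 0.0113).
*Cox8a* had 134, 143 and 139 CPM with doxycycline in the mutant line, against 128, 128 and 141 CPM without it, which overlap, and a difference of responses of 0.35 (SE 0.0886, adjusted p = 0.0132). *Cox7b*, a small subunit of complex IV, had a mutant response of 0.14 and a wild-type response of -0.19, a difference of 0.32 (SE 0.0865, adjusted p = 0.0228). *Atp5j2*, subunit f of the ATP synthase, had 0.21 and -0.17, a difference of 0.38 (SE 0.10, adjusted p = 0.0229). Of the 10 single responses of these members, those of *Cox8a* and *Ndufa11* in the wild-type line passed the test and the other 8 did not. DESeq2 called 0 of these 5, and so did the fit without mutant doxycycline library 2. Without mutant untreated library 1, wild-type untreated library 3 or wild-type doxycycline library 2, 2 members were called, and without mutant untreated library 2, mutant doxycycline library 3 or wild-type doxycycline library 3, 3 were called. Without both libraries that stand apart 2 members were called, *Cox7a2* (0.42, adjusted p = 0.0200, from 0.00600 to 0.112 over all alternatives) and, with a negative difference, *Ndufa4l2* (-1.50, adjusted p = 0.0248). The wild-type libraries kept in that fit are those described above, with *Bnip3* and *Ndufa4l2* counts highest in doxycycline library 3. The median difference of all members was 0.11, with 0.04 after removal of the length trend and 0.07 without wild-type doxycycline library 2. For transcripts up to 1 kb it was 0.143 over the members and 0.0951 over all genes. From 1 to 2 kb these medians were 0.0983 and 0.0501, and from 2 to 4 kb -0.0026 and -0.0001.

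**Figure D5:**
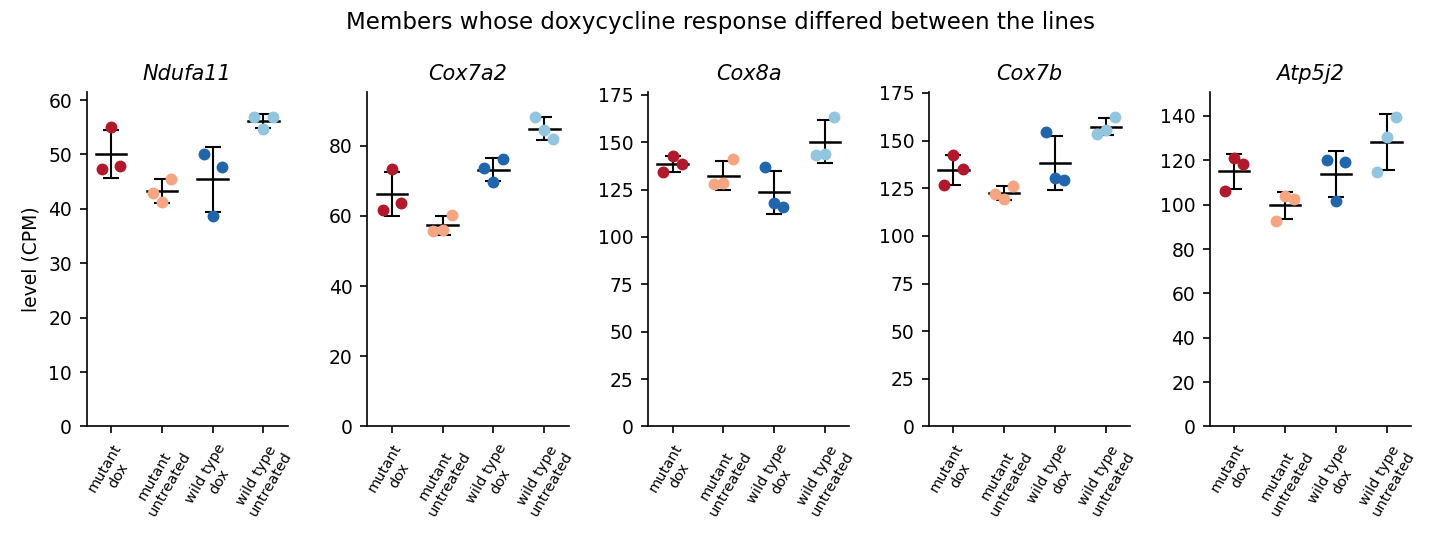
Levels in CPM of *Ndufa11*, *Cox7a2*, *Cox8a*, *Cox7b* and *Atp5j2* in each library of the 4 groups. Points are libraries, and the bars give the mean ± SD of 3 libraries. In each panel the mean with doxycycline lies above that without it in the mutant line and below it in the wild-type line.

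Other genes of the pathway, in lists written out by role, were set beside the members. Of all genes tested 22.6% were lower and 23% higher in the mutant without doxycycline, and 22.4% and 21.9% with it. Of 18 other subunits and carriers of the chain, 7 were lower and 3 higher in the untreated mutant line. *Slc25a4*, which exchanges ADP and ATP across the inner membrane, had 132, 141 and 138 CPM in untreated mutant libraries, against 272, 273 and 273 CPM in untreated wild-type libraries (log2 -0.99, SE 0.0568, adjusted p = 1.01e-20). *Cyc1*, the cytochrome subunit of complex III that the symbol rule misses, had -0.35, and *Cycs*, cytochrome c, had -0.28. *Etfdh*, which feeds electrons from fatty acid oxidation to ubiquinone, and *Coq2*, of ubiquinone synthesis, were higher, by log2 1.04 and 0.47. Of 76 mitochondrial ribosomal proteins, which make the mitochondrially encoded subunits, 45 were lower and 2 higher without doxycycline and 28 lower and 3 higher with it. Their untreated median was -0.28, and -0.20 with the length trend removed. *Mrpl37*, *Mrps24* and *Mrps31* had log2 fold changes of -0.62, -0.68 and -0.66, and *Mrpl52* and *Mrpl50* had 0.55 and 0.41.
Of 13 genes that express mitochondrial DNA, 5 were lower without doxycycline, among them *Elac2*, which trims mitochondrial transfer RNAs (log2 -0.57), and *Ssbp1*, the single-strand DNA-binding protein (log2 -0.42). *Polg*, the mitochondrial DNA polymerase, was lower with doxycycline in the wild-type line (log2 -0.45, adjusted p = 2.03e-09), and its response differed between the lines (0.35, adjusted p = 0.00155). Of 17 citric acid cycle genes 8 were lower and 2 higher without doxycycline, with *Ogdh* of the 2-oxoglutarate dehydrogenase complex at -0.57 and *Sucla2* of succinyl-CoA synthetase at 0.67. Of 27 tested assembly factors outside the rule 6 were lower and 4 higher, shares below or near those of all genes, with *Atpaf2*, which helps assemble the ATP synthase head, at -0.63. Of 15 tested regulators 4 were lower and 3 higher, also near the shares of all genes, with *Esrrb*, an oestrogen-related receptor also known from pluripotent cells, at -0.53, and *Myc* and *Yy1* at 0.57 and 0.26. Of 9 tested low-oxygen genes, 1, *Higd1a*, was higher without doxycycline (log2 0.27) and 3 were higher with it.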

How the data were processed

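Values were whole read counts per gene as deposited by the authors, for 23086 symbols and 12 libraries, and 0 columns were left unmatched. Per the labels, RNA was column-purified and made into TruSeq libraries. Per the submitters' processing notes, Trimmomatic 0.33, TopHat2 2.1.1, limma and mm10 were used. No source used here gives the counting tool, annotation or strand setting, so counts of overlapping or near-identical genes are uncertain.

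Counts were tested with edgeR 4.0.16 (R 4.3.3) by the quasi-likelihood method, using TMM scaling, robust estimation and filterByExpr with a minimum count of 10 and a minimum total of 15. One mean per group was fitted over the 12 libraries, and p-values were adjusted over all 12322 genes tested, which held 99.8% of counts. Each SE is |log2 fold change| over the root of F. At 4289984 to 4850393 counts per library, small changes of genes with few counts were not detectable. The test was tested on simulated counts. Alternatives were DESeq2 1.42.0, limma 3.58.1 (voom), other scalings and filters, a replicate block, only the libraries compared, libraries left out and a length correction.

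Lengths and positions came from GENCODE M21, for 94.1% of tested genes and 86 of 86 members. The transcript used was the best by APPRIS level, RefSeq match, basic set and support level, and the shortest of those left. This rule was changed 2 times after levels per kb had been seen, since the first rule, the longest principal transcript, gave small subunits such as *Atp5g1* isoforms of several kb. The first rule was kept as an alternative for the length correction. The correction, a lowess trend of each library's log2 deviations on log10 length used as an offset, was added after seeing the data. The motif window was widened to the full 300 bases after the YY1 motif had matched 0 members before the start. Sequence sharing was measured as 50-base stretches also found in transcripts of other annotated genes.

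The members and lists were chosen with earlier results of these data known. Named were the members called in each comparison (up to 12 per direction, by adjusted p), the 2 highest per kb in each complex, isoform families, members around the 30-count minimum and up to 3 called genes per list, direction and comparison. *Bnip3*, *Adm* and *Rn45s* were used as library quality values. Other members and *BC002163* were named after values were seen. No 2 libraries were identical, and chi-square per degree of freedom between libraries of a group ran from 1.11 to 6.28. Mitochondrially encoded transcripts were not analysed here.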

Additional observations from a re-analysis of the deposited data

Results flagged for a closer look

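The doxycycline response differed between the lines for 5 members by the test of that difference itself, mutant response minus wild-type response on the log2 scale. The differences were 0.51 for *Ndufa11*, 0.42 for *Cox7a2*, 0.35 for *Cox8a*, 0.32 for *Cox7b* and 0.38 for *Atp5j2*. For *Ndufa11*, *Cox7a2*, *Cox7b* and *Atp5j2*, 3 of 3 mutant libraries with doxycycline lay above all untreated mutant libraries, while those of *Cox8a* overlapped. In the mutant response 15 of 86 members did not overlap, all higher, beside 10.6% of all genes. These 5 were chosen by the difference of responses, which a higher mutant response enlarges, and 0 of their mutant responses passed the test. DESeq2 called 0 of them, with adjusted p from 0.0983 to 0.159. All genes with transcripts up to 1 kb had a median difference of 0.0951, and members of that length 0.143. The part of transcript length in the 5 differences was not tested beyond the length correction. Under it 4 of the 5 passed the test and *Cox7b* did not.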

How the results depend on the processing

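Of the 15 members named between the untreated lines 13 passed the test under all 23 alternatives run, as did 15 of the 19 named with doxycycline. The exceptions among these named members were *Ndufaf6* and *Ndufa4l2* without doxycycline and *Ndufa4l2*, *Cox8a*, *Ndufs4* and *Uqcrfs1* with it. The named lower members were those with the smallest adjusted p, so these counts do not describe all calls. With the length correction, 32 of the 46 calls without doxycycline and 26 of the 29 with it were kept. Without both libraries that stand apart, 41 of the 46 and 25 of the 29 were kept. No named member changed sign. The number called without doxycycline ran from 36 to 47 and with it from 20 to 31. The 2 calls of the wild-type response and the 5 of the difference of responses were each lost under some alternative, and the cause was not tested. The wild-type response had 1 call in DESeq2, 4 with no filter, 1 without both libraries that stand apart and 1 with the length correction. Leaving out 1 library gave 1 to 6. The difference of responses had 0 calls in DESeq2 and 2 without both libraries that stand apart, and leaving out 1 library gave 0 to 6. The mutant response had 0 under every alternative run.

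With the length correction, which was chosen after seeing the data and takes out a trend shared by all short genes, the members' median was -0.0668 between the untreated lines and 0.0396 for the difference of responses. With the length rule tried first these were -0.0679 and 0.0469, and 29 members were lower and 8 higher in the untreated mutant line under both rules. Between the lines with doxycycline, the median was -0.0795 without both libraries that stand apart, and -0.0791 to -0.0036 on leaving out 1 library. Same-numbered libraries of different groups had correlations from -0.0832 to 0.0876 in their deviations, and differently numbered ones from -0.116 to 0.0964. No shift shared by replicate number was seen, but these values cannot show whether same-numbered libraries were handled together. With a replicate block 2, 0, 5, 43 and 28 members were called in the wild-type response, the mutant response, their difference and the lines without and with doxycycline. At 4289984 to 4850393 counts per library, members with few counts, such as *Ndufa4l2*, had wide errors.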
